A study of Mus musculus with 3 samples.

Results

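The extracellular matrix genes described here are 38 genes for collagens, other matrix proteins, the enzymes that cut and cross-link them and 2 contractile proteins, out of the 31053 genes of the count tables. They were chosen by gene symbol, all 38 were found, and the rule uses no measured value. Their transcripts were counted cell by cell in the non-parenchymal fraction of perfused and dissociated livers, in 3 droplet libraries. The mice were females of the Balb\c strain. The control came from mice that received PBS (labelled 8 weeks old), and the other libraries from mice that received 4T1 cells, a mouse mammary carcinoma line placed at the orthotopic site, 4 days (8 weeks old) or 21 days earlier (11 weeks old). All mice were injected at 8 weeks of age, so age and time after injection cannot be told apart at day 21. Each group was 1 library, the labels do not say how many mice stand behind it, and no test between groups was possible. The intervals below therefore cover counting error only and leave out the differences between mice and between dissociations.

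The extracellular matrix is the protein scaffold around cells. In the liver, hepatic stellate cells, the retinoid-storing pericytes of the sinusoid, make most of the fibrillar collagens and small proteoglycans, and sinusoidal endothelial cells share in the thin basement-membrane material of the space of Disse. When stellate cells are activated after injury they are known to produce more fibrillar collagen, fibronectin, contractile proteins and the protease inhibitor TIMP1.

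The libraries held 6489, 9175 and 12338 barcodes and 27191082, 34833820 and 51913215 unique molecular identifiers (UMIs, each counting 1 captured transcript) in the order control, day 4 and day 21, an order kept throughout. After the filters on cells, 4694, 5410 and 9938 cells were left, with a median of 4179, 4438 and 3017 UMIs. They held 228387, 258940 and 101582 UMIs of the 38 genes. Pairs of libraries shared 13 to 32 barcode sequences, and 0 sequences were in all 3. Cells were grouped without the 38 genes, and the groups are called after marker genes that are not among them.

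Stellate-like cells came as 2 clusters that followed the libraries. Cluster 9 held 366 control and 438 day 4 cells but 6 day 21 cells, and cluster 21 held 251 day 21 cells against 24 and 26 of the others. All 16 stellate markers were detected in both clusters, including Lrat, the enzyme that esterifies retinol, at 710, 1009 and 735 CPM. CPM, the UMIs of a gene per 1000000 UMIs summed over a class within 1 library, is the unit of every level below. Desmin (Des) stood at 185, 190 and 241 and the PDGF receptor beta (Pdgfrb) at 175, 244 and 329. Among the 10 leading genes of cluster 21, however, Mustn1 belonged to the smooth muscle list and no gene to the stellate list. The clusters are therefore compared by number, cluster 9 in the control and day 4 libraries with cluster 21 at day 21. In that comparison the cluster and the library cannot be told apart for day 21. Levels of some genes within cluster 21 alone are given below. Defining smooth muscle genes were low: Cnn1, Actg2 and Pln had 0 UMIs in all 3 libraries and Myh11 stood at 10.6, 6.27 and 8.92 CPM. The smooth muscle list as a whole, 6 of its 9 genes detected, summed to 637, 659 and 982 CPM, and Mustn1 alone to 116, 136 and 484.

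Many of these barcodes also carried RNA of other lineages. Endothelial markers made up 0.3% or more of the UMIs in 50.8%, 50% and 76.1% of stellate-like barcodes, and Kupffer markers in 1.37%, 1.37% and 5.98%. Without them 178, 218 and 53 cells were left, and each main result is also given for these, called the cells low in endothelial and Kupffer RNA. Their median depth was 6754, 6367.5 and 4496 UMIs, against 14372, 10947 and 6500.5 in the barcodes left out. Whether the latter were doublets was not tested. Markers of neutrophils, whose share of all kept cells was 1.19%, 3.59% and 39.5%, summed to 15.8, 25.1 and 5372 CPM in stellate-like cells, with 8, 8 and 13 of the 13 markers present. In the cells left they summed to 4.21, 16.6 and 7524, so these were not low in neutrophil RNA at day 21. The part of these RNAs in the results below was not tested beyond the values given.

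Stellate-like cells were 7.80%, 8.10% and 2.53% of kept cells but held 69.7%, 70.5% and 57.3% of the UMIs of the 38 genes. Endothelial-like cells, at 27.4%, 26.9% and 10.4% of cells, held 15.9%, 15% and 16.5%, and clusters that could not be named 10.1%, 9.97% and 5.40%. Monocyte/macrophage-like cells held 0.0757%, 0.0958% and 9.83%, neutrophil-like cells 0.0473%, 0.191% and 5.15% and fibroblast-like cells 1.12%, 0.709% and 1.93%. Of the 37 genes with at least 50 UMIs in all kept cells, 26 were highest in stellate-like cells, 6 in endothelial-like, 3 in hepatocyte-like, 1 in Kupffer-like and 1 in neutrophil-like cells, by the mean over the 3 libraries. Also ranked were conventional dendritic-like, T-like, B-like, NK/ILC1-like and cholangiocyte-like cells. Monocyte/macrophage-like cells (26 and 22 in the first 2 libraries), fibroblast-like cells (7, 7 and 9) and the other small classes were not ranked, and the order may differ with them: Fn1, first in hepatocyte-like cells here at 650, 534 and 506 CPM, stood at 629, 510 and 671 in monocyte/macrophage-like cells.

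**Figure D1:**
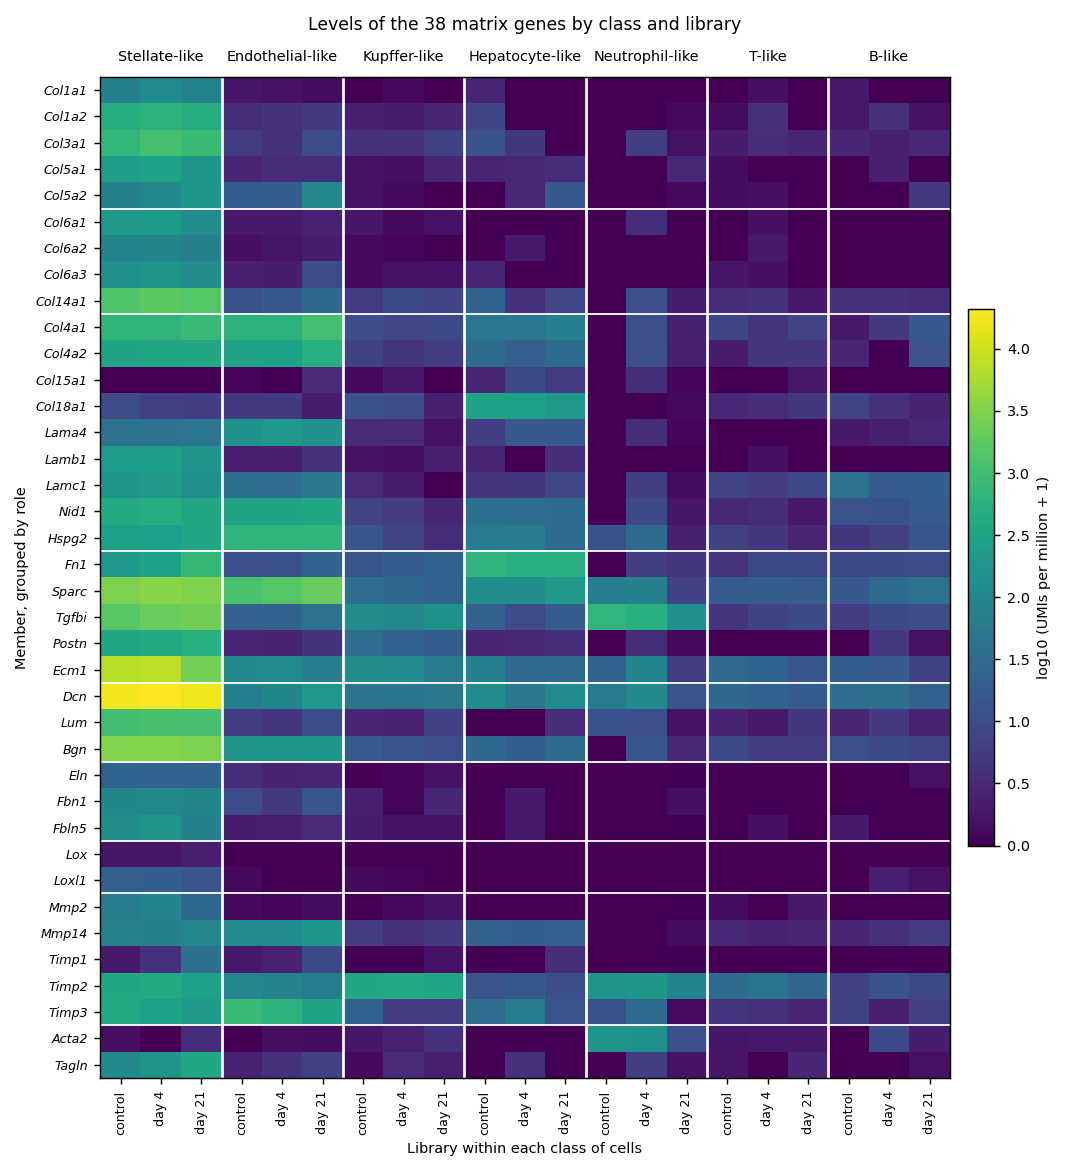
Level of each of the 38 matrix genes (rows, grouped by role) in 7 classes of cells and 3 libraries (columns), as log10 of CPM plus 1. The stellate-like columns are brightest for 26 genes, with Dcn at 17894, 20911 and 16461 CPM, and T-like and B-like columns show how little of most genes was counted outside the matrix-producing classes.

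At day 4, stellate-like cells had 4 of the 34 genes with at least 50 UMIs in the pair at 1.5-fold or more above the control and 1 at 1.5-fold or more below it. Among all 9566 genes with as many UMIs, 3.75% were 1.5-fold higher and 3.70% 1.5-fold lower. The 4 were Col1a1, Col3a1, Fn1 and Tagln. The median log2 ratio of the 34 was 0.19 against 0.01 for all genes, and 27 of the 34 lay above 0. Without the barcodes that carried RNA of another lineage, 0 of 32 genes passed 1.5-fold in either direction, against 4.99% and 4.24% of 6375 genes, and the median was 0.15 against 0.01. With cells thinned to 1000 UMIs none of the 5 genes passed 1.5-fold either, with log2 ratios of 0.22 for Col1a1, 0.52 for Col3a1, 0.39 for Fn1, 0.55 for Tagln and -0.26 for Col18a1.

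At day 21, 5 of 34 genes were 1.5-fold or more above the control (Fn1, Tagln, Timp1, Col5a2 and Tgfbi) and 6 were as far below it (Ecm1, Mmp2, Timp3, Fbln5, Col6a1 and Loxl1). Here 15.5% of 8948 genes were higher and 10.1% lower by that fold, so the higher count was at the level of all genes and the lower count above it. The median log2 ratio was 0.04 against 0.07 for all genes. In the cells low in endothelial and Kupffer RNA, 5 of 31 genes were higher, against 12.0% of 4472, and 3 were lower, against 16.5%. Of the 11 calls, Fn1, Tagln, Col5a2 and Tgfbi stayed higher and Ecm1 and Mmp2 stayed lower there, and Timp1 had under 50 UMIs. Both comparisons with the control use the same control cells. Compared directly with day 4, day 21 had 4 genes higher, against 14.1% of 8956 genes, and 5 lower, against 9.37%. Without barcodes of another lineage 3 of 31 were higher, against 10.2% of 4928, and 4 lower, against 15.5%.

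**Figure D2:**
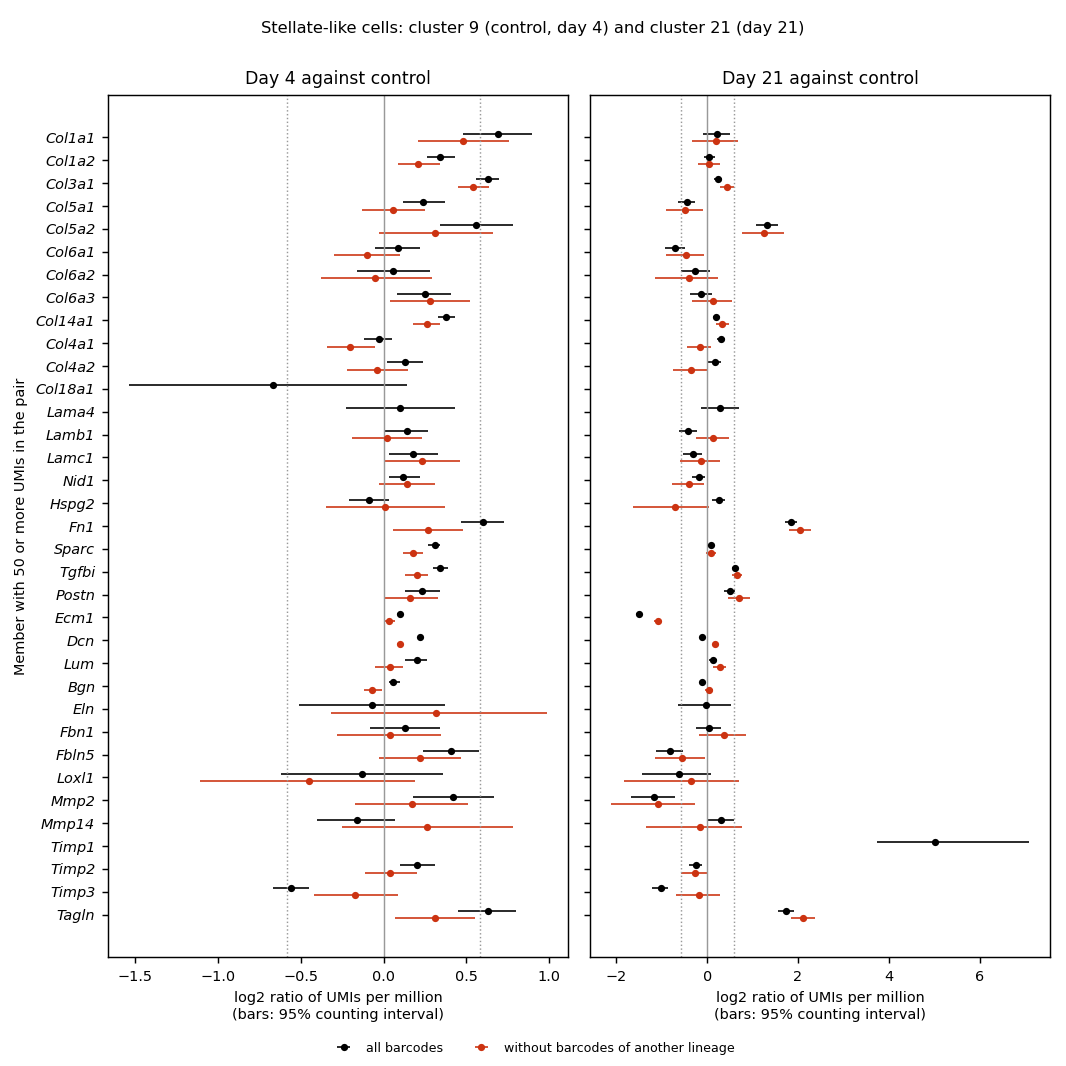
Log2 ratio of CPM in stellate-like cells for each gene with at least 50 UMIs in the pair, day 4 (left) and day 21 (right) against the control. Black points use all barcodes and red points leave out barcodes with RNA of another lineage, bars are 95% counting intervals, dotted lines mark 1.5-fold, and the largest values at day 21 are Timp1 at 5.02, Fn1 at 1.85 and Ecm1 at -1.51.

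The fibrillar collagens form the cable-like fibres of scar and of portal tissue. Col1a1, the alpha 1 chain of type I collagen, had 298, 478 and 140 UMIs in stellate-like cells, which is 77.3, 125 and 89.2 CPM. Its log2 ratio to the control was 0.69 at day 4 (interval 0.48 to 0.90) and 0.21 at day 21 (-0.09 to 0.50). Without barcodes of another lineage its level was 146, 205 and 167 and the day 4 ratio 0.48, short of 1.5-fold. Col1a2, the partner chain of the same molecule, stood at 487, 617 and 500, a day 4 ratio of 0.34. Col3a1, the type III collagen of fine reticular fibres, was the most abundant gene of the group at 733, 1132 and 865. Its day 4 ratio was 0.63 (0.56 to 0.70), and 0.54 in the cells low in endothelial and Kupffer RNA, again just short of 1.5-fold. The day 4 library was thus highest for all of these 3 genes, and the day 21 library lay between it and the control. Subclusters of the stellate-like cells are described below. In subclusters 0, 1 and 2 the day 4 ratios of Col1a1 were 0.42, 0.53 and -0.37. Those of Col3a1 were 0.49, 0.48 and 0.04, and none of these passed 1.5-fold. The ratios of Fn1 were 0.70 (0.37 to 1.05), 0.96 (0.76 to 1.16) and 0.30, the first 2 past 1.5-fold. For Tagln they were 0.14, 0.93 (0.61 to 1.25) and 0.40, past it in subcluster 1 only. Subcluster 1 took the endothelial name by its markers, with endothelial or Kupffer RNA in 100% of cells. Subcluster 0, with the most Col1a1 of the 3, held 112 of 366 control and 184 of 438 day 4 cells.

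The type V collagens, which set fibre diameter, went apart at day 21. Col5a2 stood at 75.2, 111 and 187 CPM, a log2 ratio of 1.31 (1.07 to 1.55) at day 21 against the control and 0.75 against day 4. Its day 21 ratio to the control was 1.24 in the cells low in endothelial and Kupffer RNA. Col5a1, whose product joins that of Col5a2 in the same trimer, stood at 251, 297 and 184 and was the lowest at day 21, with a log2 ratio of -0.69 (-0.88 to -0.50) against day 4 and -0.45 against the control. The ratio to day 4 was -0.53, short of 1.5-fold, in the cells low in endothelial and Kupffer RNA.

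The beaded-filament collagen VI genes were flat or lower at day 21. Col6a1 stood at 212, 225 and 130 CPM, a day 21 ratio of -0.71 (-0.94 to -0.48), which was -0.46 in the cells low in endothelial and Kupffer RNA. Col6a2 stood at 89.2, 92.9 and 74.5 and Col6a3 at 144, 171 and 131, neither past 1.5-fold. Col14a1, a collagen that sits on the surface of fibres, stood at 1336, 1736 and 1537 and was also within 1.5-fold.

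Of the 9 basement-membrane genes, those of the sheet-forming type IV collagens, the laminins and their linkers, 7 could be compared at day 21 and all lay within 1.5-fold of the control, from -0.43 (Lamb1) to 0.30 (Col4a1). Col4a1 stood at 660, 644 and 815 and Col4a2 at 336, 366 and 374. Where barcodes with endothelial RNA were left out, these ratios were -0.17 and -0.36 instead of 0.30 and 0.16, and that of Hspg2 (perlecan, a heparan sulphate proteoglycan) went from 0.25 to -0.71, on 15 UMIs at day 21. The level of Hspg2 was 287, 270 and 343 over all barcodes and 103, 103 and 61.0 without those of another lineage. Lama4 likewise went from 40.2, 43.1 and 49.0 to 5.05, 8.68 and 8.13. Lamb1 (232, 256 and 172), Lamc1 (186, 211 and 149) and the linker nidogen, Nid1 (443, 482 and 388), were each lowest at day 21, although Lamb1 stood at 303, 307 and 329 in the cells low in endothelial and Kupffer RNA. Col18a1, the source of endostatin, was low at 8.82, 5.48 and 5.09, and its day 4 ratio of -0.67 had an interval of -1.54 to 0.14. Col15a1 had 0 UMIs in all 3 libraries, which allows levels of up to 0.778, 0.783 and 1.91 CPM.

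The matrix glycoproteins held the clearest differences. Fn1, fibronectin, the adhesive glycoprotein that cells assemble into fibrils, had 794, 1197 and 1167 UMIs, or 206, 313 and 743 CPM. Its log2 ratio to the control was 0.60 (0.47 to 0.73) at day 4 and 1.85 (1.72 to 1.98) at day 21. In the cells low in endothelial and Kupffer RNA the levels were 279, 337 and 1154, so that the day 4 ratio shrank to 0.27 and that of day 21 was 2.05. At least 1 Fn1 UMI was found in 73.5%, 78.8% and 88.8% of stellate-like cells. With every cell thinned to 1000 UMIs the shares were 21.9%, 25.8% and 50.6%, against 0.479%, 0.425% and 0.766% in T-like cells, whose median depth was 3677, 3835 and 1740 UMIs. Monocyte/macrophage-like cells had Fn1 at 629, 510 and 671 CPM, on 26, 22 and 1068 cells, and their 9 markers summed to 7.52, 3.66 and 58.6 in stellate-like cells.

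Ecm1, extracellular matrix protein 1, a secreted glycoprotein made at high level by resting stellate cells, went the other way. It had 27928, 29736 and 3993 UMIs, or 7244, 7764 and 2543 CPM, and was the second most abundant of the 38 genes in the control and day 4 libraries. The log2 ratio at day 21 was -1.51 (-1.56 to -1.46) against the control and -1.61 against day 4, while day 4 differed from the control by 0.10. In the cells low in endothelial and Kupffer RNA the levels were 10097, 10327 and 4727 and the day 21 ratio -1.09. After thinning, 99.2%, 99.3% and 83.3% of cells held an Ecm1 UMI. It was 1 of the 10 leading genes of cluster 9, although it was not used to form the clusters. Cluster 21 alone held 24 control, 26 day 4 and 251 day 21 cells. There Ecm1 stood at 3686, 2862 and 2543 CPM, so its levels lay closer than in the comparison above. In the same cells Fn1 stood at 124, 126 and 743, Tagln at 46.2, 86.7 and 378 and Col5a2 at 38.9, 32.2 and 187. Dcn stood at 7164, 8168 and 16461 there.

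The sequence upstream of Ecm1 is shown because this gene had the lowest ratio in stellate-like cells. The gene lies at chr3:95734147-95739569 on the minus strand of GRCm38, and the 250 bases before its start, chr3:95739570-95739819 from the RefSeq table of GRCm38.p6, are given 5′ to 3′ with a TATA box (TATAAA), an AP-1 site (TGANTCA) and a GC box (GGGCGG) in capitals.
Ecm1: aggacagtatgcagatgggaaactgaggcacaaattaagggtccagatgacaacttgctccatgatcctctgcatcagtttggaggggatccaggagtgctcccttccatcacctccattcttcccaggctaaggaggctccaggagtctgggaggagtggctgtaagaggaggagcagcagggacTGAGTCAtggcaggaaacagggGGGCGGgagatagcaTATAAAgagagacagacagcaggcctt

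The other glycoproteins moved less. Sparc (osteonectin, a collagen-binding protein) stood at 2884, 3572 and 3077 CPM, within 1.5-fold throughout. Tgfbi, an adhesion protein induced by TGF-beta, stood at 1602, 2033 and 2445, a day 21 ratio of 0.61 (0.55 to 0.67) that was 0.65 in the cells low in endothelial and Kupffer RNA. Periostin (Postn) stood at 372, 438 and 526, with day 21 ratios of 0.50 over all barcodes and 0.70 in those cells. For both genes the order was control, day 4, day 21 from low to high. Tgfbi was also counted in neutrophil-like cells at 696, 519 and 146 CPM, below the stellate-like level in each library.

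The small leucine-rich proteoglycans, which coat collagen fibres and bind TGF-beta, were the most abundant and the flattest group. Decorin (Dcn) stood at 17894, 20911 and 16461 CPM, lumican (Lum) at 1020, 1168 and 1113 and biglycan (Bgn) at 3153, 3296 and 2896. Their day 21 ratios were -0.12, 0.13 and -0.12, and 0.17, 0.28 and 0.04 in the cells low in endothelial and Kupffer RNA. Decorin and lumican are neighbours on chromosome 10 of GRCm38, at 97479609 to 97518143 and 97565128 to 97572703.

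Among the elastic-fibre genes, fibulin 5 (Fbln5), which organises elastin fibres, stood at 133, 177 and 74.5 CPM. Its day 21 ratio was -0.83 (-1.14 to -0.54) against the control and -1.24 against day 4, and -0.56 and -0.78 in the cells low in endothelial and Kupffer RNA. Elastin (Eln) at 23.6, 22.5 and 22.9 and fibrillin 1 (Fbn1) at 93.4, 102 and 95.5 were level. The cross-linking enzyme Lox had 3, 3 and 2 UMIs. Loxl1 stood at 20, 18.3 and 12.7, and its day 21 ratio of -0.62 had an interval of -1.44 to 0.08 and changed sign under 2 other ways of forming the classes.

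Proteases and their inhibitors differed most in size. Timp1, the secreted inhibitor of matrix metalloproteinases, had 4, 11 and 59 UMIs in stellate-like cells, or 1.04, 2.87 and 37.6 CPM. The log2 ratio at day 21 was 5.02 (3.75 to 7.10) against the control and 3.66 (2.77 to 4.79) against day 4, the largest of the genes compared. Within cluster 21 alone, the 24, 26 and 251 cells held 0, 10 and 59 Timp1 UMIs, or 0, 24.8 and 37.6 CPM. The ratio to day 4 therefore depends on which day 4 cells are used. Timp1 at day 4 lay closer to its day 21 level within cluster 21, on 10 UMIs. In the cells low in endothelial and Kupffer RNA it had 3 and 23 UMIs in the control and at day 21, 2.52 and 93.5 CPM, a log2 ratio of 5.02 (3.48 to 7.59). At least 1 Timp1 UMI was found in 1.09%, 2.51% and 19.5% of the cells (intervals 0.299 to 2.77, 1.26 to 4.45 and 14.8 to 25). After thinning to 1000 UMIs the shares were 0.273%, 0.685% and 1.99%, and the day 21 log2 ratio to the control was 2.42. Among the classes ranked, endothelial-like cells came second for Timp1. Their mean over the 3 libraries was 3.59 CPM, against 13.8 in stellate-like cells. T-like and B-like cells had 0 Timp1 UMIs in all 3 libraries, which allows T-like levels of up to 1.24, 1.5 and 2.82 CPM. The 3923 neutrophil-like cells at day 21 held 1 Timp1 UMI and the 1068 monocyte/macrophage-like cells 6.

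The 250 bases upstream of Timp1 are shown for the largest ratio. The gene lies at chrX:20870166-20874735 on the plus strand of GRCm38, and the window is chrX:20869916-20870165 (RefSeq, GRCm38.p6). Capitals mark the core of the TEAD motif (GGAATG) near the left end. The next capitals are a CCAAT box and those at the right end a GC box, both read on the other strand.
Timp1: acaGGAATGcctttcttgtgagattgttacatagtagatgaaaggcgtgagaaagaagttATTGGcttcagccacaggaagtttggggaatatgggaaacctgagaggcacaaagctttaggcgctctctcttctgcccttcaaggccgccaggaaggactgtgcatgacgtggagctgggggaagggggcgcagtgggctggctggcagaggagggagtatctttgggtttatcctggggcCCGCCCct

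A RefSeq entry was matched for 25 of the 38 genes. Among these, searched on both strands over 250 bases, a GC box was in 68.0% of the 25 against 32.7% of 32817 promoters in the table. A CCAAT box was in 40.0% against 33.8%, the GGAATG core in 20% against 12.6%, a TATA box in 8.0% against 12.4% and TGANTCA in 8.0% against 6.75%. The CArG box was in 0 of the 25 and in 1.47% of all. These are counts of letters in the window and not of bound sites.

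The other inhibitors and the proteases were lower or level at day 21. Timp3, the inhibitor that stays bound to the matrix, stood at 430, 291 and 210 CPM in stellate-like cells, a day 21 ratio of -1.03 (-1.21 to -0.86). In the cells low in endothelial and Kupffer RNA it stood at 209, 186 and 183, a ratio of -0.18, so this call was not held without the barcodes that carried endothelial RNA. Timp2 stood at 382, 440 and 320, within 1.5-fold. Mmp2, gelatinase A, stood at 63.5, 85.1 and 28.0, a day 21 ratio of -1.17 (-1.68 to -0.71) that was -1.08 in the cells low in endothelial and Kupffer RNA, on 127 and 12 UMIs. Mmp14, the membrane protease that activates pro-MMP2, stood at 82.7, 73.9 and 102.

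The contractile genes divided. Tagln (transgelin, SM22), an actin-binding protein of smooth muscle and activated stellate cells, had 438, 672 and 593 UMIs, or 114, 175 and 378 CPM. Its log2 ratio was 0.63 (0.45 to 0.80) at day 4 and 1.73 (1.55 to 1.91) at day 21, which became 0.31 and 2.11 in the cells low in endothelial and Kupffer RNA. It was 1 of the 10 leading genes of cluster 21. Tagln UMIs were in 34.7%, 40.2% and 57.4% of the cells, and in 10.4%, 13% and 27.5% after thinning. Acta2, alpha smooth muscle actin, the usual marker of activated stellate cells, had 2, 0 and 4 UMIs in the same cells, and the 0 at day 4 allows up to 0.783 CPM. Tagln was thus counted in most day 21 cells while Acta2 was at or near 0 in each library.

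Clustered again without the 38 genes, the stellate-like cells fell into 7 subclusters, and 3 of them carried little endothelial or Kupffer RNA. Subcluster 0 (112 control and 184 day 4 cells), subcluster 2 (102 and 104) and subcluster 5 (69 day 21 cells and 1 of day 4) had such RNA in 21.8%, 20.6% and 32.9% of cells, against 99.3% in subcluster 3, which held 143 day 21 cells. Subcluster 5 was not low in neutrophil RNA: neutrophil markers made up a median of 0.17% of its UMIs, against 0 in subclusters 0 and 2 and 0.214% in subcluster 3. By the marker rule applied within the stellate-like cells it took the neutrophil name, on 4 of 13 markers, and it is called by its number here. Subclusters 0 and 2 differed from each other within a library. In the control, Mmp2 stood at 169 and 34.8 CPM, Loxl1 at 64.2 and 8.02, Col1a1 at 198 and 78.9 and Col3a1 at 1421 and 853 in subclusters 0 and 2. Fn1 was reversed at 137 and 427, and so was Sparc at 2531 and 4107. The same orders held at day 4, with Mmp2 at 157 and 32.5 and Fn1 at 222 and 526. Loxl1 and Col1a1 were among the leading genes of subcluster 0, so these differences describe the subclusters.

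Subcluster 5 can be set beside both. Its Fn1 level of 941, Tagln level of 730, Col5a2 level of 231 and Timp1 level of 66.1 CPM were above those of subclusters 0 and 2 in either library, the highest of which were 526, 275, 134 and 5.70. Timp1 was among the 10 leading genes of subcluster 5, so its level describes that subcluster. Its Ecm1 level of 4485 was below theirs, 9359 to 10327, and so was Fbln5 at 116 against 185 to 227. Mmp2 at 56.1 and Col1a1 at 165 lay between subclusters 0 and 2, so the day 21 ratio of Mmp2 over all stellate-like cells depends on which control cells it is set against. Dcn at 29606 matched the 29587 of subcluster 0 in the control. Timp3 at 241 was at the 238 and 234 of the control subclusters.

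**Figure D3:**
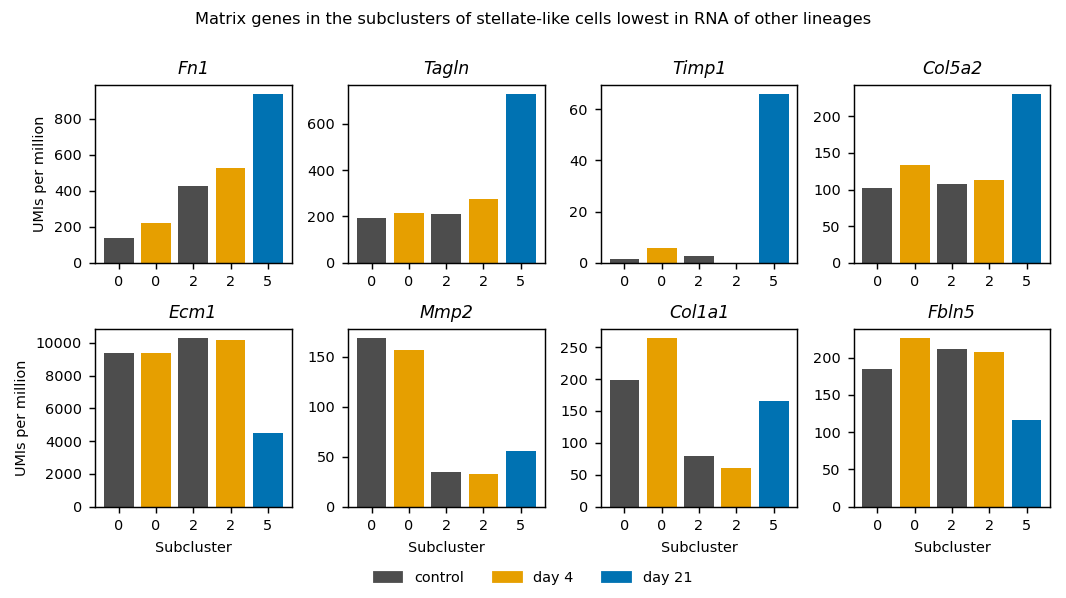
CPM of 8 matrix genes in the 3 subclusters of stellate-like cells with the least endothelial and Kupffer RNA, by library (grey control, orange day 4, blue day 21), on linear axes that start at 0. Fn1, Tagln, Timp1 and Col5a2 are highest in subcluster 5 of day 21 and Ecm1 and Fbln5 lowest there, while Mmp2 and Col1a1 lie between subclusters 0 and 2.

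Endothelial-like cells numbered 1288, 1456 and 1031. Here too the clusters followed the libraries, with clusters 0 and 14 holding 970 and 301 control and 1146 and 287 day 4 cells, and cluster 6 holding 956 of the day 21 cells, so that cluster and library cannot be told apart at day 21. All 15 endothelial markers were detected and summed to 32796, 33657 and 34010 CPM. Neutrophil markers summed to 48.6, 66.6 and 3384, and their part in the results was not tested. Stellate markers summed to 481, 515 and 890, and barcodes in which they reached 0.3% of UMIs were 0.155%, 0.618% and 4.46%.

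At day 4, 0 of 21 genes were 1.5-fold higher in endothelial-like cells than in the control, where 4.28% of 10133 genes were, and 2 were lower, where 2.91% were. The 2 were Fbn1, at 9.18 and 4.48 CPM with a log2 ratio of -1.02 (-1.66 to -0.43), and Col3a1, at 4.92 and 3.20 with a ratio of -0.61 (-1.41 to 0.15). Both were also lower without the barcodes of another lineage, where 0 of 21 genes were higher, against 4.22% of 10113, and 2 lower, against 2.87%. At day 21, 11 of 20 genes were higher and 2 lower, against 16% and 9.22% of 9608 genes, and the median was 0.69 against 0.09. Without the barcodes that carried stellate or Kupffer RNA, 6 of 20 were higher, against 15.8%, and 2 lower, against 9.30%, and the median was 0.39. The 5 genes that left the count are Dcn, Lum, Col14a1, Fn1 and Tgfbi, and all but Fn1 were highest in stellate-like cells among the classes ranked above. Against day 4, 10 of 19 genes were higher at day 21 and 2 lower, against 12.0% and 7.97% of 9682. Without barcodes of another lineage 4 of 18 were higher, against 12.0% of 9639, and 2 lower, against 8.04%, and the median went from 0.61 to 0.24.

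Of the 6 basement-membrane genes compared with the control at day 21, the 2 type IV collagens were 1.5-fold higher. The median log2 ratio of the 6 was 0.36. Col4a1 stood at 589, 603 and 1064 CPM and Col4a2 at 313, 323 and 540. Their day 21 log2 ratios were 0.85 (0.78 to 0.92) and 0.79 (0.69 to 0.88) over all barcodes and 0.86 and 0.80 without those of another lineage. Control and day 4 were level for both genes, and day 21 stood above them. The 2 genes lie head to head on chromosome 8 of GRCm38, with start sites at 11312826 on the minus strand and 11312805 on the plus strand, an overlap of 22 bases. Lamc1 stood at 37.9, 34.5 and 52.4, with day 21 ratios of 0.47 against the control and 0.61 against day 4, the latter 0.51 without barcodes of another lineage. The remaining basement-membrane genes compared were within 1.5-fold: Hspg2 stood at 660, 656 and 672, Nid1 at 330, 330 and 392 and Lama4 at 161, 199 and 154.

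Col5a2 had the largest endothelial ratio. It had 141, 153 and 280 UMIs, or 18.8, 19.6 and 104 CPM, a day 21 log2 ratio of 2.47 (2.18 to 2.78) that was 2.41 without barcodes of another lineage. In T-like cells it stood at 0.412, 0.501 and 0.00 and in Kupffer-like cells at 0.555, 0.292 and 0.00. B-like cells had 0.00, 0.00 and 4.38 and hepatocyte-like cells 0.00, 2.05 and 14.9. Both of the latter were highest at day 21, on 8 and 6 UMIs. Col1a2 and Col5a1, which stood at 500 and 184 in day 21 stellate-like cells against 187 for Col5a2, had 12 and 7 UMIs in day 21 endothelial-like cells. Sparc stood at 1218, 1517 and 2031, a day 21 ratio of 0.74 (0.69 to 0.79), and Mmp14 at 121, 127 and 187, a ratio of 0.63 (0.47 to 0.79). Both ratios were as large without barcodes of another lineage, at 0.72 and 0.65.

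Timp3 was the gene most clearly lower in endothelial-like cells. It had 6340, 4665 and 892 UMIs, or 844, 597 and 332 CPM, with log2 ratios of -0.50 (-0.55 to -0.44) at day 4 and -1.35 (-1.45 to -1.25) at day 21. The same order was seen within cluster 0, at 738, 503 and 445 (49 cells at day 21), and cluster 6 stood at 326 at day 21. The upstream sequence of Timp3 is shown for this lowest endothelial ratio. The gene lies at chr10:86300372-86349506 on the plus strand of GRCm38 and the 210 bases end 1 base before it, chr10:86300162-86300371 (RefSeq, GRCm38.p6). None of the 6 motifs was in these letters, which are therefore all in lower case. The bases from there to the RefSeq start site at 86300412 are not shown, and the count of GC boxes given above credits Timp3 with one that is not in the letters shown.
Timp3: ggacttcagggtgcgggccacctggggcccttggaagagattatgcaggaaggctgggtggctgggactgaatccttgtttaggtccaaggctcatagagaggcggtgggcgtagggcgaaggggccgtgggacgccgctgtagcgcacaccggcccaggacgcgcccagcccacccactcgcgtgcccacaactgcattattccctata

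Ecm1 was lower at day 21 in endothelial-like cells too, at 112, 127 and 69.2 CPM, a ratio of -0.69 (-0.93 to -0.46). This gene was at 2543 to 7764 in stellate-like cells, and the level in T-like cells of the same libraries was 30.1, 23.5 and 14.1. Kupffer-like cells had it at 134, 126 and 62.2. Day 21 was thus the lowest library in each of these classes, T-like cells included.

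**Figure D4:**
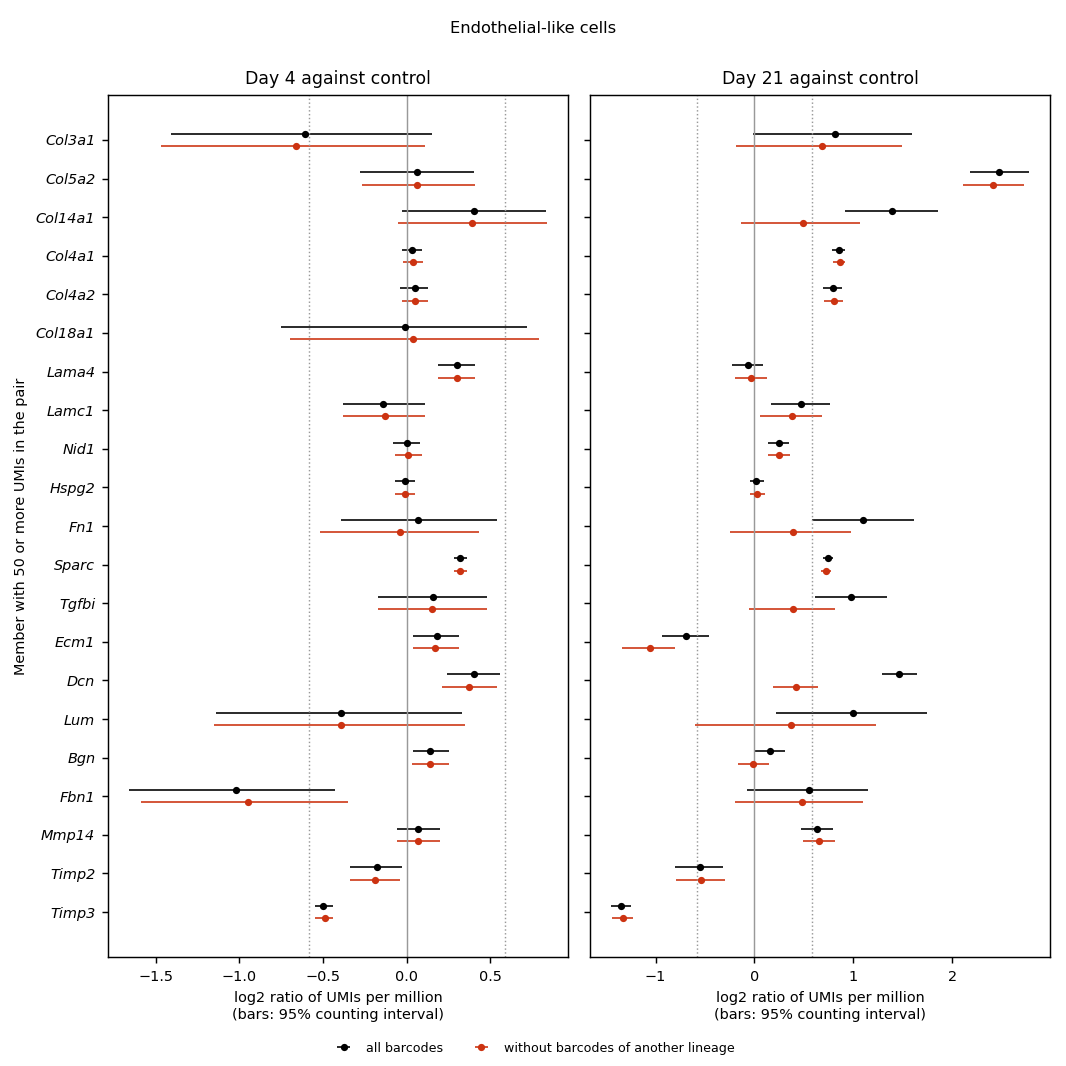
Log2 ratio of CPM in endothelial-like cells for each gene with at least 50 UMIs in the pair, day 4 (left) and day 21 (right) against the control, with all barcodes (black) and without barcodes of another lineage (red). Bars are 95% counting intervals and dotted lines mark 1.5-fold; Col5a2 at 2.47 and Timp3 at -1.35 hardly move between the colours, and Dcn goes from 1.46 to 0.42.

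Cluster 24 was left out of the endothelial-like class because Slit2, of the fibroblast list, was among its 10 leading genes and no endothelial marker was, although 11 of the 15 were detected. The naming rule itself called it endothelial, and clusters 0, 6 and 14 had no endothelial marker among their leading genes either. Cluster 21 had the same pattern for the stellate list and was kept, so this choice was not applied alike. Vwf, Edn1 and Gja5, genes of larger vessels, led cluster 24. Its 106, 72 and 57 cells had Col5a2 at 80.6, 95.8 and 405 CPM, Col4a1 at 514, 559 and 908 and Timp3 at 1788, 1361 and 994. The day 21 log2 ratios were 2.32 (1.78 to 2.89), 0.82 (0.53 to 1.10) and -0.84 (-1.09 to -0.61). These 3 genes thus differed in the same directions in a cluster that all 3 libraries share. The other genes past 1.5-fold in endothelial-like cells at day 21 are not given for it. Biglycan was lower at 228, 134 and 57.8, a ratio of -1.91 (-3.07 to -1.06) on 133 and 10 UMIs.

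In the other classes few of the genes had many UMIs, and examples are given here. Kupffer-like cells had Timp2 at 395, 405 and 362 CPM, as high as stellate-like cells, Tgfbi at 128, 105 and 157 and Ecm1 as given above. Of 10 genes compared at day 21 there, 1 was 1.5-fold higher and 6 lower, where 15.6% of 7798 genes were higher and 11.0% lower. The 6 were Hspg2, Sparc, Postn, Ecm1, Bgn and Timp3. Each stood far below its stellate-like level, as Sparc at 34.7 against 2884 CPM in the control, and the source of these UMIs was not tested. Hepatocyte-like cells had Fn1 at 650, 534 and 506 and Col18a1 at 314, 290 and 201, with a day 21 ratio of -0.64 (-1.04 to -0.26) for Col18a1. Sparc stood at 134, 137 and 211 there, a day 21 ratio of 0.65 (0.19 to 1.12). Conventional dendritic-like cells had Tgfbi at 141, 132 and 219, Fn1 at 11.3, 19.3 and 113 and Timp2 at 28.3, 50.5 and 135. The day 21 ratios of Fn1 and Timp2 were 3.22 (2.12 to 4.83) and 2.22 (1.44 to 3.17), on 6 and 62 and on 15 and 74 UMIs. A Fn1 UMI was found in 4.35% of control and 10.4% of day 21 cells, and a Timp2 UMI in 14.5% and 20.7%. Dcn, at 166, 102 and 20.1, and Ecm1, at 81.0, 26.5 and 16.5, went the other way. Their day 21 ratios were -2.99 (-4.1 to -2.13) and -2.24 (-3.52 to -1.24). Neutrophil-like cells had Tgfbi at 696, 519 and 146, Timp2 at 168, 189 and 89.2 and Acta2 at 168, 157 and 10.3, on 56, 194 and 3923 cells. Cluster 3 held 53 and 175 of the control and day 4 cells but 993 of the day 21 cells.

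UMIs of abundant matrix genes were also counted in lymphocytes. Whether they came from free RNA in the droplets was not tested. Dcn stood at 27.6, 23.0 and 16.9 CPM in T-like cells and at 35.5, 39.0 and 20.8 in B-like cells, which do not make it, and Sparc at 17.3, 19.5 and 17.9 in T-like cells. A Dcn UMI was found in 8.44%, 7.17% and 3.18% of T-like cells. The endothelial-like Dcn levels of 73.5, 96.7 and 202 were above these, with a Dcn UMI in 20%, 22% and 13% of cells.

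**Figure D5:**
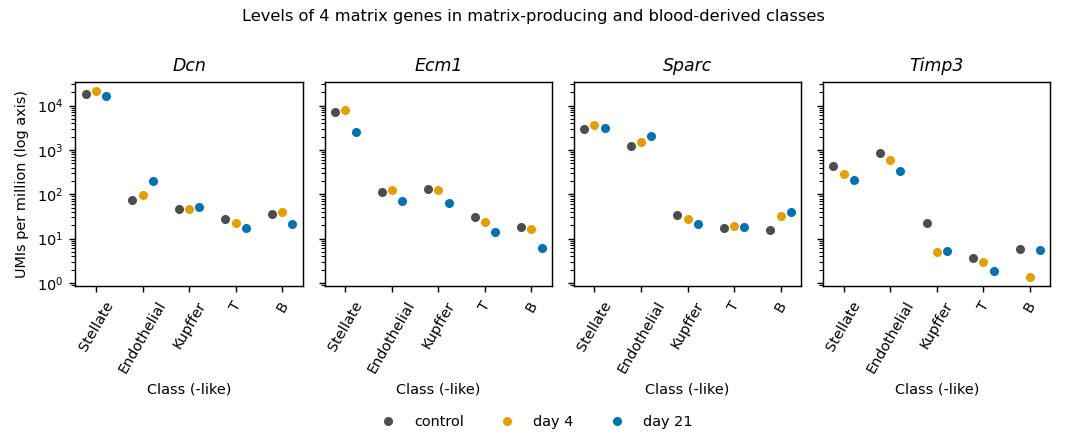
CPM (log axis) of Dcn, Ecm1, Sparc and Timp3 in stellate-like, endothelial-like, Kupffer-like, T-like and B-like cells, 1 point per library. T-like and B-like points show the level counted in lymphocytes of the same libraries, for Dcn 16.9 to 39.0 against 16461 to 20911 in stellate-like cells.

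Genes that work with these 38 were read from 6 further lists. In stellate-like cells at day 21, the list of TGF-beta, PDGF and activation genes had 7 of 30 compared genes 1.5-fold higher and 2 lower, where 15.5% and 10.1% of all genes were. In the cells low in endothelial and Kupffer RNA, 8 of 25 were higher and 2 lower, where 12.0% and 16.5% of all genes were. Cyr61, a matricellular protein, stood at 20 CPM in the control and 655 at day 21, a log2 ratio of 5.03 (4.70 to 5.39), and it was a leading gene of cluster 21. S100a6, a calcium-binding protein, stood at 5.97 and 203, and it was also a leading gene of a neutrophil-like cluster. Bambi, a decoy receptor of the TGF-beta family, was lower at 257 and 164, a ratio of -0.64 that was -0.17 in the cells low in endothelial and Kupffer RNA. Matrix receptors had 8 of 19 higher and 2 lower, but 2 of 13 and 1 in the cells low in endothelial and Kupffer RNA. Cd44, the hyaluronan receptor, stood at 6.22 and 50.3 and Itga8, an integrin chain of stellate cells, at 158 and 86.6.

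Proteases and inhibitors outside the 38 had 5 of 12 higher and 1 lower in the same comparison, and 1 of 6 and 2 in the cells low in endothelial and Kupffer RNA. Of all genes 15.5% were higher and 10.1% lower, and 12.0% and 16.5% in the cells low in endothelial and Kupffer RNA. Adamts5, an aggrecanase, was the 1 gene lower over all barcodes. It stood at 137 and 66.9, a log2 ratio of -1.03 (-1.35 to -0.73) that was -0.86 in those cells. Of 28 other glycoproteins and proteoglycans 6 were higher and 9 lower, with thrombospondin 1 (Thbs1) at 5.97 and 32.5 and osteoglycin (Ogn) at 28.3 and 8.28. In the cells low in endothelial and Kupffer RNA, 4 of 22 were higher and 8 lower. Collagen processing enzymes had 3 of 25 higher and 1 lower, with the transglutaminase Tgm2 at 158 and 378, and of 6 other collagens 0 were higher and 2 lower. In the cells low in endothelial and Kupffer RNA, 4 of 21 processing enzymes were higher and 2 lower, and the 1 other collagen compared was higher.

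At day 4, where 3.75% of all genes were 1.5-fold higher and 3.70% lower in stellate-like cells, these lists had 3 of 30 activation genes higher and 0 lower, 2 and 0 of 29 glycoproteins, 1 and 0 of 27 processing enzymes, 0 and 2 of 13 proteases and inhibitors, 0 and 1 of 19 receptors and 0 and 2 of 8 other collagens. Ctgf, a matricellular target of TGF-beta, stood at 65.1 and 112, Thbs1 at 5.97 and 19.8 and Plod2, a collagen lysyl hydroxylase, at 27.2 and 42.8. Adamts1, a protease of versican, was lower at 437 and 289, a ratio of -0.60 that was -0.23 in the cells low in endothelial and Kupffer RNA.

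In endothelial-like cells at day 21, proteases and inhibitors outside the 38 had 5 of 7 genes higher and 0 lower, where 16% and 9.22% of all genes were. Adamts4, an aggrecanase, had 3 and 80 UMIs, 0.399 and 29.8 CPM, a log2 ratio of 6.01 (4.62 to 8.53), and Adamts9 stood at 18.9 and 112. Activation genes had 7 of 26 higher and 3 lower, with Bambi at 54.6 and 12.6. Matrix receptors had 4 of 13 higher and 1 lower, with integrin beta 3 (Itgb3) at 10.1 and 40.5. Processing enzymes had 5 of 19 higher and 0 lower, with Tgm2 at 128 and 426. Other glycoproteins had 6 of 17 higher and 5 lower, with Ltbp4, a TGF-beta-binding protein of microfibrils, at 505 and 187. Of 4 other collagens 0 were higher and 3 lower, with the transmembrane collagen Col13a1 at 306 and 172. At day 4, P4ha1 and Serpinh1, a prolyl hydroxylase chain and a collagen chaperone, were the 2 of 19 processing enzymes 1.5-fold higher, against 4.28% of all genes, at 68.4 and 120 and at 103 and 160, and Adamts1 stood at 316 and 111.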

How the data were processed

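Gene-by-cell UMI counts of 3 libraries were deposited by the authors as raw counts (10x 3' droplets), made with Cell Ranger 3.1.0 on mm10, per the submitters' processing notes. Labels give 1 library per group, so no test between groups was made. No deposited barcode held fewer than 500 UMIs. Barcodes under 200 genes or over 20% mitochondrial UMIs were dropped. Called doublets (Scrublet, 0.8% expected per 1000 barcodes) were then removed, 40, 99 and 732 in the control, day 4 and day 21 libraries. These were 0.845%, 1.80% and 6.86% of the barcodes scored, below the 5.19%, 7.34% and 9.87% expected, most so in the control. The filters removed 27.7%, 41.0% and 19.5% of barcodes. Cells were clustered (2000 variable genes without the 38, 30 components, 15 neighbours, Leiden resolution 1) with Scanpy 1.11.5, scikit-learn 1.9.0, leidenalg 0.10.2 and igraph 0.11.9 in Python 3.11.15. Sums and figures used SciPy 1.17.1 with NumPy 2.4.6, pandas 2.3.3 and matplotlib 3.10.9.

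Names of clusters rest on 21 marker lists that hold none of the 38 genes, a marker counting where it was in at least 10% of cells and at 2-fold the rest. A name needed 3 markers. Reading stellate clusters 9 and 21 by number, setting cluster 24 apart, and the 0.3% limit on RNA of another lineage were chosen after the data were seen. The members and the gene lists were chosen with earlier results of these data known.

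UMIs were summed per class and library and given as counts per 1000000 UMIs of the class (CPM). Log2 ratios used sums with 0.5 added and exact conditional binomial 95% intervals. Genes with 50 UMIs or more in a pair were compared, and those 1.5-fold apart were named, with examples of the rest by role. For other classes some of the members with more UMIs are given as examples. Pathway lists name at most the 2 largest and 2 smallest ratios. An absent gene was limited by 3 counts. Shares of cells have exact Clopper-Pearson intervals. All intervals and limits cover counting error only. Depth was compared by thinning cells to 1000 UMIs. The ratio code was tested on simulated data. Alternatives covered cell filters, doublets, clustering, scaling, thresholds and barcodes of other lineages. Promoters came from RefSeq (GRCm38.p6) and positions from GENCODE M21 (GRCm38).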

Additional observations from a re-analysis of the deposited data

Results flagged for a closer look

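The type III collagen gene Col3a1 had opposite directions in 2 classes of cells at day 4 against the control. Its log2 ratio was 0.63 in stellate-like cells (2826 and 4337 UMIs) and -0.61 in endothelial-like cells (37 and 25 UMIs, interval -1.41 to 0.15). The difference between the classes was not tested, since each group was 1 library. The endothelial ratio was 0.05 when classes were formed from each cell's own markers.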

How the results depend on the processing

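No paired analysis was possible because each group was 1 library, and leaving out a replicate was impossible for the same reason. In stellate-like cells at day 4, the 5 genes past 1.5-fold became 3 without a mitochondrial limit, 3 with doublets kept, 0 with classes from each cell's own markers, 1 with a mean over cells, 0 at 2-fold and 0 without barcodes of another lineage, an alternative chosen after seeing the data. With thinned cells 4 genes passed, none of them among the 5. At day 21 the 11 genes became 7 with thinned cells and 7 at 2-fold, and the median of 0.04 became -0.15 with doublets kept and -0.18 with a mean over cells. Loxl1 changed sign, at 0.52 with the 38 genes among the variable genes and 0.36 with own markers. Against day 4 the median of -0.26 became -0.09 without a mitochondrial limit, -0.46 with doublets kept, -0.01 with the 38 among the variable genes, 0.07 with own markers and -0.11 without barcodes of another lineage. In endothelial-like cells at day 4 the 2 genes became 7 under a stricter cell filter, 0 with thinned cells, 4 with a minimum of 20 UMIs, 0 with 200 and 1 at 2-fold. The median of 0.05 became -0.26 under the stricter filter and -0.15 with own markers, and Col3a1 became 0.05 with own markers. At day 21 the 13 genes became 20 with own markers, 5 at 2-fold and 8 without barcodes of another lineage. Col3a1 reversed to -0.42 without a mitochondrial limit, -0.87 with the 38 among the variable genes, -0.37 at Leiden resolution 2 and -0.74 with thinned cells, and Dcn and Lum to -0.13 and -0.28 under the stricter filter. Against day 4 the 12 genes became 21 with own markers, 5 at 2-fold and 6 without barcodes of another lineage, the median of 0.61 became 0.23, 0.36 and 0.24 without a mitochondrial limit, under the stricter filter and without those barcodes, and Lum became -0.04 without a mitochondrial limit. The stellate share of cells became 11.0%, 10.8% and 3.24% without a mitochondrial limit, 13%, 12.4% and 3.35% under the stricter filter and 6.03%, 6.95% and 1.29% with own markers. The share of matrix UMIs without a mitochondrial limit was 74.3%, 74.6% and 59.6% in stellate-like and 17.2%, 16.5% and 15% in endothelial-like cells. Thinned shares of cells with a UMI were 0.273%, 0.685% and 1.99% for Timp1, 21.9%, 25.8% and 50.6% for Fn1 and 10.4%, 13% and 27.5% for Tagln. The cause of these shifts was not tested. Fn1, Tagln, Ecm1, Col5a2 and Timp1 in stellate-like cells at day 21 were past 1.5-fold in all 13 settings in which each was recomputed, over 1.65 to 2.05, 1.47 to 2.11, -1.72 to -1.09, 1.08 to 1.45 and 2.42 to 5.42. For Timp1 these settings include the one without barcodes of another lineage, where it had under 50 UMIs. Its lowest ratio came from thinned cells, where 0.273% of control and 1.99% of day 21 cells held a UMI. No setting compared the libraries within cluster 21 alone, where the Ecm1 levels lay closer, at 3686, 2862 and 2543 CPM. Timp1 stood at 0, 24.8 and 37.6 CPM within that cluster, so its day 4 level lay closer to that of day 21.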
